A study of Mus musculus with 10 samples.

Results

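miR-328 is represented in these retinal small RNA data by 2 of the 1061 mature miRNAs of the deposited table, mmu-miR-328-3p and mmu-miR-328-5p (miR-328-3p and miR-328-5p from here on), which were taken by name as the products of opposite arms of a single hairpin. They were followed through all 10 libraries, from the left and right retinas of 5 mice numbered 61, 64, 65, 66 and 68. The animals were wild type, of the inbred strain C57BL/6J, and were 34 postnatal days old at collection. Each had carried a goggle with a lens of -20 D, which shifts the focused image to behind the retina and serves to make an eye myopic, over 1 eye for 10 days from postnatal day 24, while the fellow eye had no lens. Which eye wore the lens is not stated in the labels, so the comparison made here is right against left retina within a mouse, and no side is called treated.

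A miRNA is cut from a hairpin precursor, usually with 1 arm kept in an Argonaute protein and the other discarded. Bases 2 to 8 of the kept arm, the seed, pair with messenger RNAs and lower their translation and stability. miR-328 has been studied as a myopia candidate because it was reported to repress PAX6 in human cells. PAX6 is a homeodomain transcription factor that directs eye development and remains expressed in amacrine and ganglion cells of the adult retina. The messenger RNA of Pax6 was not measured in these libraries.

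Both arms of miR-328 map to the minus strand of mouse chromosome 8 in GRCm38, miR-328-3p from 105308379 to 105308400 and miR-328-5p from 105308419 to 105308440. They lie in the annotated precursor Mir328 (105308364 to 105308460). The precursor lies within Elmo3 (105305601 to 105310760), which is transcribed from the plus strand and encodes an engulfment and cell motility protein. It overlaps no annotated exon of Elmo3 and is therefore intronic and antisense to it.

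Other miRNAs that have been named as refractive error candidates, or reported to repress Pax6, were set beside miR-328. Mature sequences from RefSeq (GRCm38.p6) matched 7 of these 8 miRNAs. They are shown to tell their seeds apart, with the seed in capitals. miR-375-3p was the remaining miRNA of this group.
miR-184-3p: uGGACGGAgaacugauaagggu
miR-29a-3p: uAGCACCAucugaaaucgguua
let-7i-5p: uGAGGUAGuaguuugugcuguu
miR-7a-5p: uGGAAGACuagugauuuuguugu
miR-7b-5p: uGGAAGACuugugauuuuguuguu
miR-365-3p: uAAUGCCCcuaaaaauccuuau
miR-450b-5p: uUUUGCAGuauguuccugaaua
The 7 sequences held 6 distinct seeds, since miR-7a-5p and miR-7b-5p share theirs.

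The libraries had the miRNA profile of retina. All 3 photoreceptor markers, both neuronal markers and both pigment epithelium markers were above 0 in all 10 libraries, and the photoreceptor markers summed to between 10550800 and 10579100 normalised reads of a total near 17312269. Markers of other tissues were lower, and 2 lists each had 1 library far above the rest. The lens and cornea markers (2 of 2 above 0 throughout) summed to 22409 normalised reads in the right library of mouse 65, against 998.6 to 2073 in left retinas and a median of 1994 over all libraries. Of that highest sum, miR-184-3p alone made up 22384. The other marker, miR-205-5p, averaged 29.1 over the 10 libraries and did not share the rise. The skeletal muscle markers summed to 1629 in the left retina of mouse 68 and to a median of 298.5 over all libraries, and miR-1a-3p and miR-206-3p of that list were at 0 in some. The 2 erythrocyte markers summed to 28.8 to 95.95 normalised reads. The 2 lymphoid and myeloid markers summed to 1435 to 2117 in left and 1677 to 2189 in right retinas, with miR-223-3p at 0 in some libraries.

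miR-328-3p was an abundant retinal miRNA with similar levels on both sides. In left retina it was measured at 5627 normalised reads in mouse 61, 4642 in mouse 64, 7533 in mouse 65, 5404 in mouse 66 and 6491 in mouse 68. In right retina of the same mice it was at 7796, 6086, 4871, 5938 and 6629 normalised reads. The highest library was the right retina of mouse 61 and the lowest the left retina of mouse 64, a 1.68-fold range, and the values of the sides overlapped over most of that range. Values that did not overlap between the sides were found for 4 of 484 miRNAs tested (0.826%), with miR-328-3p not among them. The left retinas averaged 5939 ± 1108 normalised reads and the right retinas 6264 ± 1068 (SD, n = 5 each).

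**Figure D1:**
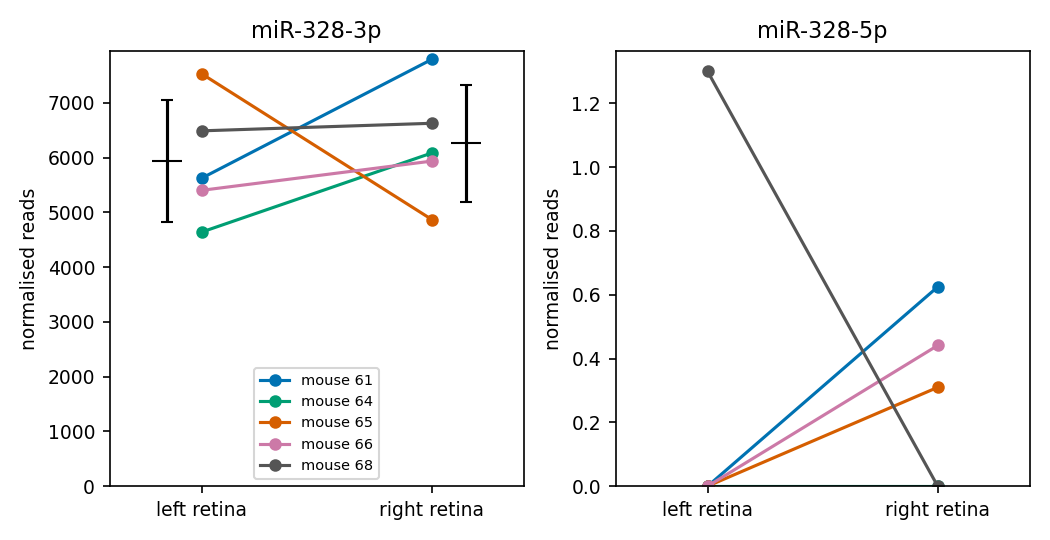
Normalised reads of miR-328-3p (left panel) and miR-328-5p (right panel) in the left and right retina of each mouse, with a line joining the eyes of an animal and, for miR-328-3p, a bar for the mean and SD of each side (n = 5). miR-328-3p lies between 4642 and 7796 normalised reads and is higher in the right retina of 4 mice and lower in that of mouse 65, whereas miR-328-5p is at or below 1.3 throughout.

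The normalisation tied each deposited value to a rank within the library, so the rank is the more direct reading. miR-328-3p was 55th of 1061 miRNAs by its mean of 6102 ± 1040 normalised reads (SD over 10 libraries), and its rank in a library ran from 48 to 64. It made up 0.0352% of the normalised total on average. In all 10 libraries 44 miRNAs were above it and 995 below it, and the other 21 changed places with it. miR-182-5p, the leading photoreceptor miRNA, was 1613-fold higher, in normalised reads per mature miRNA. Ligation of adapters favours some sequences over others, so this is no ratio of molecules, and no length correction was made because mature miRNAs are of nearly equal length.

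The neighbours of miR-328-3p in the order of levels had ranges over the libraries that overlapped its own. miR-130a-3p (6753 ± 155 normalised reads, SD over 10 libraries) was above miR-328-3p in 8 of 10 libraries. The endothelial miR-126a-5p (6441 ± 609) and miR-186-5p (6405 ± 459) were each above it in 6. Of those just below by mean, the hypoxia-induced miR-210-3p (5918 ± 848) and miR-148a-3p (5780 ± 646) were above it in 5 libraries and miR-410-3p of the imprinted Dlk1-Dio3 region (5640 ± 668) in 3. The SD of miR-328-3p, 1040 normalised reads, was larger than that of each of these 6 neighbours.

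The 5p arm was listed at or near 0 throughout. miR-328-5p was listed at 0 in 6 of 10 libraries, among them 4 of 5 left retinas. Left mouse 68 had 1.3 normalised reads of it, and it was at 0.625, 0.310 and 0.441 in the right retinas of mice 61, 65 and 66. These values lay in the lowest part of the table, where many miRNAs are tied: 64 miRNAs had the value 1.3 in that left library, and 116, 106 and 117 miRNAs had those of the 3 right libraries. A value above 0 at this level need not mean that the 5p arm was detected, and the depth of the libraries is unknown. Its place in the table by mean was 966th of 1061.

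The strand asymmetry of miR-328 was near the extreme among hairpins with both arms listed. Hairpins with only 1 arm listed, such as miR-375, were left out of these comparisons. Over the 10 libraries the 5p arm made up 0.00438% of both arms, and in a single library at most 0.0200%, in the left retina of mouse 68. Among the 329 hairpins with both arms listed, 80 had a higher arm with a mean of at least 1000 normalised reads, and their lower arm had a median share of 0.476%. The lower arm had a smaller share than in miR-328 for 1 of these hairpins, miR-182, whose 3p arm took 0.00301%. miR-181d (0.00525%), miR-541 (0.00530%) and miR-192 (0.00565%) came next, each with the 5p arm as the higher one. The 3p arm was the higher one in 34 of the 80 hairpins and the 5p arm in 46. Of 29 other hairpins within 2-fold of miR-328 in the sum of both arms, 0 had a smaller share in the lower arm, and their shares ran from 0.00530% to 49.2%. These shares carry the ligation bias of each arm, and those of a lower arm with a mean below 1 normalised read, as in 7 hairpins, rest on values near 0.

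**Figure D2:**
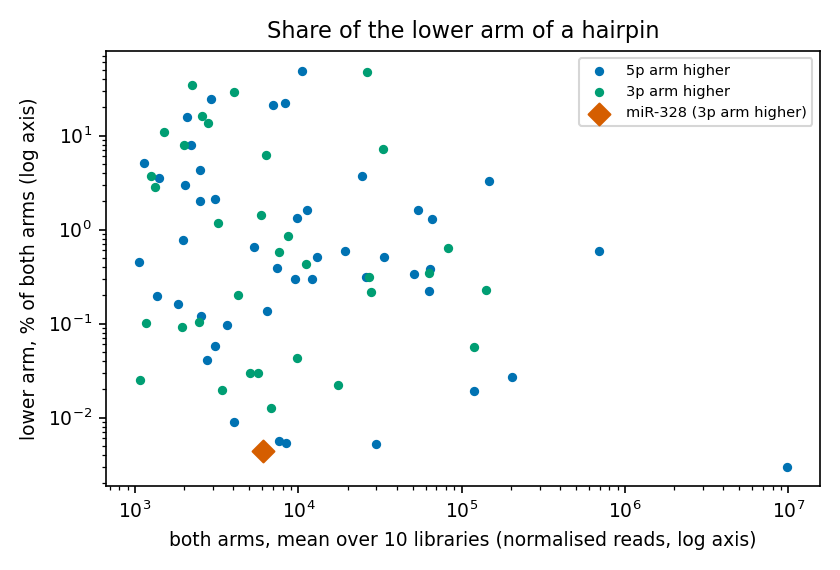
Share of the lower arm, in % of both arms, against the sum of both arms in normalised reads (means over 10 libraries, both axes logarithmic). Shown are 80 hairpins with both arms listed whose higher arm is at 1000 or more. miR-328 (diamond) lies at 0.00438%, above miR-182 at 0.00301% and below all other hairpins shown.

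Right and left retinas were compared to ask whether miR-328 differed between eyes of which 1 had worn the lens. miR-328-3p was higher in the right retina of 4 mice and lower in that of mouse 65. On the log2(value + 1) scale, right minus left was 0.47 in mouse 61, 0.39 in mouse 64, 0.14 in mouse 66 and 0.03 in mouse 68, and -0.63 in mouse 65. In ranks, it stood 11, 8, 3 and 1 places higher in the right than in the left library of the first 4 and 14 places lower in mouse 65, at 63 against 49. The mean log2 difference of 0.08 was smaller than its SD over mice of 0.44.

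No difference between the sides was detected for miR-328-3p. By limma with mouse as a block, its log2 fold change was 0.08 (SE 0.16), with a 95% interval from -0.30 to 0.46 and an adjusted p of 0.978 over 484 miRNAs tested. The interval reaches from 1.23-fold lower to 1.38-fold higher in right retina. Of the 484 miRNAs, 0 (0%) passed the adjusted threshold of 0.05 and 12 (2.48%) were at an unadjusted p under 0.05, and by the latter p miR-328-3p was in place 304. The exact sign-flip test over 5 mice gave p = 0.75 (two-sided, smallest possible 0.0625), both for the log2 difference and for the mean rank difference of -1.8. A lens worn on the right by some mice and on the left by others would cancel in this contrast.

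The value depended on single mice. Without mouse 65, the log2 fold change of miR-328-3p was 0.26, with an unadjusted p of 0.0272 and an adjusted p of 0.337 by limma, and 63 of the 483 miRNAs then tested were at an unadjusted p under 0.05. Without mouse 61 it was -0.02 and without mouse 64 it was 0.00. The right retina of mouse 65, where miR-328-3p was at 4871 normalised reads, was also the library with the high lens and cornea sum. That sum of 22409 was high through miR-184-3p alone. There miR-184-3p was at 22384 normalised reads, and its fellow eye had 987.6. The part of lens or cornea tissue in the miR-328-3p value was not tested.

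miR-328-5p had no interpretable difference. It was below the mean of 10 normalised reads needed for the test, so 1 of the 2 arms was tested with the other miRNAs. In a fit without that filter its log2(value + 1) difference was 0.08 (SE 0.32; adjusted p by limma 0.973 over 1061 miRNAs). The log2 ratio of the arms was 12.28 ± 0.52 for the left side and 12.27 ± 0.36 for the right side (SD, n = 5 each), with p = 0.938 by the exact sign-flip test (two-sided). That ratio is set largely by the pseudocount of 1, because the 5p arm lies near 0.

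Since the lens may have been on either side, the size of the eye-to-eye difference was described without its sign. The eyes of a mouse differed in miR-328-3p by 1.39-fold in mouse 61, 1.31-fold in mouse 64, 1.55-fold in mouse 65, 1.10-fold in mouse 66 and 1.02-fold in mouse 68. The mean absolute difference was 0.33 on the log2 scale within mice and 0.26 between the left eye of one mouse and the right eye of another (20 pairs). For the miRNAs tested, the median of the same ratio was 0.928, against 1.26 for miR-328-3p, and 83.3% of 479 miRNAs had a lower ratio. The direction rested on mouse 65: without it, the mean absolute difference was 0.26 within mice and 0.29 between mice (12 pairs), a ratio of 0.874.

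The level of miR-328-3p was also compared between animals. Averaged over both eyes, miR-328-3p was at 6711 normalised reads in mouse 61, 5364 in mouse 64, 6202 in mouse 65, 5671 in mouse 66 and 6560 in mouse 68. The SD of these means on the log2 scale was 0.14, the same as the median of 39 other miRNAs within 2-fold of miR-328-3p in mean level, of which 20 had a smaller value. The SD of right minus left was 0.44. Among the same 39 miRNAs its median was 0.19, and 38 had a smaller value than miR-328-3p, the exception being miR-184-3p with 1.90. Without mouse 65, the SD of miR-328-3p was 0.21, the median of the 39 was 0.13, and 30 had a smaller value. Over all 484 miRNAs, most of which were less abundant, the median in all 5 mice was 0.33.

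**Figure D3:**
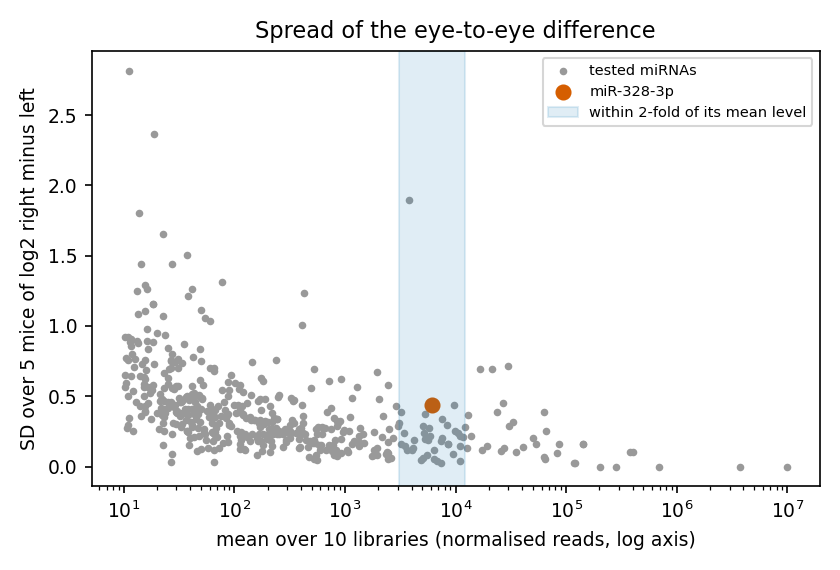
SD over 5 mice of the log2 difference, right minus left, against the mean over 10 libraries in normalised reads (logarithmic axis) for the 484 miRNAs tested, with the band within 2-fold of the mean level of miR-328-3p shaded. miR-328-3p lies at 0.44, above the 0.19 that is the median of the other miRNAs in the band, and without mouse 65 its SD is 0.21.

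The eye differences of miR-328-3p went along with a trend by base composition in the libraries. For each 10 percentage points of GC in a mature sequence, log2 values shifted by 0.19 in mouse 61, 0.12 in mouse 64, -0.17 in mouse 65, 0.06 in mouse 66 and 0.04 in mouse 68 (right minus left, slope over the 424 of 484 tested miRNAs with a RefSeq sequence, 87.6%). The order of the mice, and the negative sign of mouse 65 alone, were the same as for miR-328-3p, whose differences were 0.47, 0.39, -0.63, 0.14 and 0.03. miR-328-3p is not among the 424 miRNAs, so its own GC content was not used and its value was not adjusted, and the part of base composition in it was not tested. With 5 mice no correlation is given.

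The miRNAs whose values were most like those of miR-328-3p over the 10 libraries were taken from 479 miRNAs by Pearson's r on the log2 scale, as a description of libraries that share animals, unknown depths and the rank normalisation. miR-486a-3p, an arm of an erythroid hairpin, was the most alike with r = 0.85. It ran from 38.1 to 102 normalised reads and its difference had the sign of miR-328-3p in 5 of 5 mice. The erythrocyte markers miR-451a and miR-144-3p had their highest sum, 95.95, in the left retina of mouse 61, where miR-328-3p was at 5627. Their lowest sum, 28.8, was in the left retina of mouse 65, where miR-328-3p was at 7533. These are only the extremes of that sum, which was 44.4 to 67.8 in right retinas and had a median of 58.6 over all libraries. The sums of the other libraries were not set beside miR-328-3p, and a part of blood in these values was not tested. The imprinted miR-127-3p followed with r = 0.82, although it took only 2 distinct values, 131892 and 150447 normalised reads. The next were miR-9769-3p (r = 0.80), miR-541-5p of the Dlk1-Dio3 region (0.79) and the lymphocyte miRNA miR-150-5p (0.78). The sign of the eye difference was that of miR-328-3p in 3 of 5 mice for miR-127-3p, miR-9769-3p and miR-541-5p and in 4 of 5 for miR-150-5p. Mouse 65, the largest step of miR-328-3p, weighs most in this choice of miRNAs. Because the 5 were chosen by r in the same libraries, like signs follow in part from the choice and are no separate result.

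Some miRNAs had a negative r to miR-328-3p. miR-338-3p had the lowest r of the 479, at -0.94, and miR-33-5p had -0.88, and both were named after their values were seen. miR-338-3p ran from 1148 to 1535 normalised reads. Its right-minus-left log2 difference was -0.32 in mouse 61 and -0.24 in mouse 64, where that of miR-328-3p was above 0, and 0.21 in mouse 65. In mouse 66 and mouse 68 it was 0.03 in each, with the sign of miR-328-3p. The 13 miRNAs with an r of -0.7 or lower had a median GC content of 40.9%, against 47.8% for the tested miRNAs with a sequence. For the 20 with an r of at least 0.7, a sequence was matched for 15 (75%), below the 80% required here for such a check, which is therefore void. Across 420 miRNAs, which are not independent replicates, GC content and likeness to miR-328-3p had r = 0.39. The likeness and the GC slopes by mouse come from the same libraries, so they are not separate results. The part of base composition in the likeness was not tested.

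**Figure D4:**
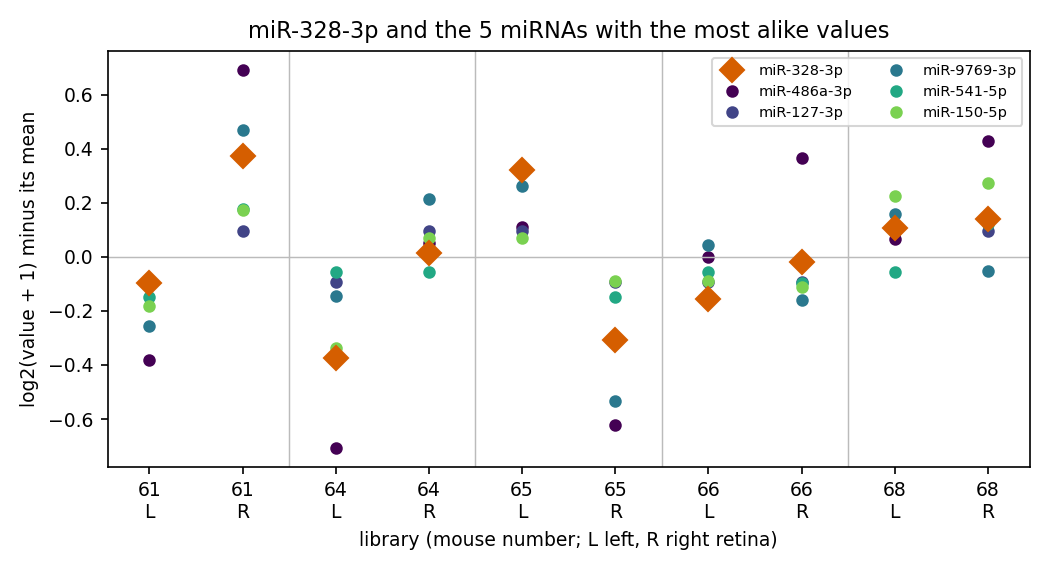
Log2(value + 1) minus its mean over 10 libraries for miR-328-3p (diamonds) and the 5 miRNAs with the highest Pearson's r to it, by mouse number and side (L left, R right retina). In mouse 61 the values are higher in the right retina and in mouse 65 in the left, with miR-328-3p differing by 0.47 and -0.63.

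Among the refractive error candidates, 0 of 4 passed the test by limma, against 0% of all miRNAs, and 0 were at an unadjusted p under 0.05, against 2.48%. Beside miR-328-3p they were let-7i-5p, miR-29a-3p and miR-184-3p. Their log2 fold changes were above 0 for 2 and below 0 for 2, and the median was 0.01 (-0.01 over all 484 miRNAs). miR-29a-3p, which represses collagen genes, ran opposite to miR-328-3p in all 5 mice. Its difference was -0.78 in mouse 61, -0.20 in mouse 64, 0.31 in mouse 65, -0.17 in mouse 66 and -0.25 in mouse 68. let-7i-5p, of the let-7 family of differentiated cells, had the sign of miR-328-3p in mice 61, 65 and 68, with 0.18, -0.55 and 0.09. Its sign was opposite in mouse 66 (-0.06), and it was equal in both eyes of mouse 64. miR-184-3p of lens and cornea was below miR-328-3p in 9 of 10 libraries and was above it in the right retina of mouse 65. Its log2 fold change of 1.12 (SE 0.67, adjusted p by limma 0.958) was the highest of the 484 miRNAs. The difference was 4.50 in mouse 65, against 0.18 in mouse 61, 0.41 in mouse 66 and 0.51 in mouse 68. In mouse 64 both eyes were equal.

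Of the 5 other miRNAs reported to repress Pax6, 0 passed the test by limma and 0 were at an unadjusted p under 0.05, against 0% and 2.48% of all miRNAs, with 2 above 0 and 3 below and a median log2 fold change of -0.04. miR-375-3p, which represses PAX6 in human neural cells, was the only one above miR-328-3p in level, at 10510 ± 1423 normalised reads (SD over 10 libraries). Right against left, its log2 fold change was 0.02 (SE 0.09). The others were 2 orders of magnitude or more lower than miR-328-3p. miR-365-3p, which acts on PAX6 in human retinoblastoma cells, was at 46.4 ± 3.83 normalised reads and miR-450b-5p at 15.4 ± 5.33. miR-450b-5p had the smallest unadjusted p of the list, 0.0856 by limma (adjusted p 0.958). Its log2 fold change was 0.49, and the right value was the higher one in mice 64, 65, 66 and 68.

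The miR-7 pair, which shares its seed and represses Pax6 in the mouse forebrain, varied more between eyes than miR-328-3p. Both miRNAs were far lower in level, and their spread was not set beside that of other miRNAs of such a level. miR-7a-5p was at 38.5 ± 24.0 and miR-7b-5p at 13.2 ± 6.79 normalised reads (SD over 10 libraries). Right minus left, miR-7a-5p had -1.08 in mouse 61, -0.11 in mouse 64, 1.56 in mouse 65, 0.63 in mouse 66 and -1.39 in mouse 68 on the log2 scale. miR-7b-5p had the same signs, from -2.06 in mouse 61 to 1.29 in mouse 65. In mice 61, 64, 65 and 68 both were thus opposite in sign to miR-328-3p, and in mouse 66 they had the same sign. The log2 fold changes over 5 mice were -0.08 (SE 0.44) and -0.45 (SE 0.48).

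**Figure D5:**
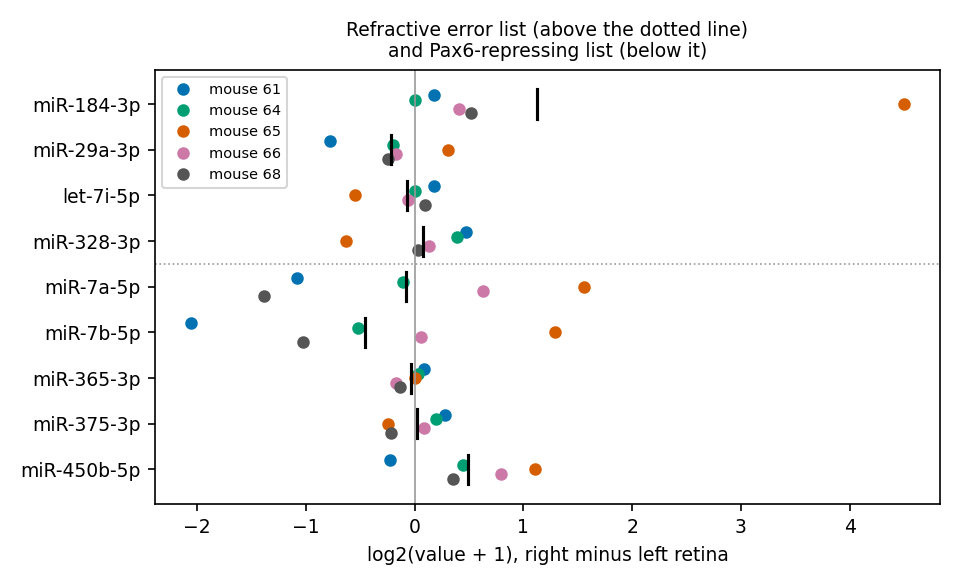
Right minus left retina on the log2(value + 1) scale in each of 5 mice (points) with the limma estimate (black bar), for the refractive error list and the Pax6-repressing list. miR-328-3p spans -0.63 to 0.47, with mouse 65 on the opposite side from the other mice, and miR-184-3p reaches 4.50 in mouse 65.

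No listed miRNA neighboured miR-328 closely on chromosome 8. The nearest were both arms of miR-1966, 307 kb further along the chromosome and on the opposite strand, with means of 0.286 (5p) and 2.98 (3p) normalised reads over 10 libraries. On the other side the nearest was miR-7073-5p, at a distance of 9555 kb and a mean of 0.248 normalised reads, and then miR-138-2-3p with 5.97. All 4 were below the mean of 10 needed for the test, so miR-328-3p was the one measured miRNA of its chromosomal surroundings with a level high enough to compare.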

How the data were processed

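The values deposited by the authors were a signal derived from read counts, 1 per mature miRNA and library, called normalised counts by the table itself. Small RNA libraries were made with a ligation-based kit, per the labels' protocols. The tools Partek and Bowtie and the builds GRCm38 and mm10 appear in the lists of the submitters' processing notes. The sources used here do not describe trimming or the miRNA annotation. When values were sorted, 342 ranks held 1 common value across the libraries, and totals lay between 17312269 and 17312436, as quantile normalisation gives, so the depth is unknown and no counting interval could be given. The table's end lay 1 base beyond the RefSeq end for 908 of 908 matched miRNAs, and positions are printed with the last base as the end.

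miRNAs with a mean of at least 10 were tested, 484 of 1061, as log2(value + 1), with limma 3.58.1 in R 4.3.3 (mouse as a block, mean-variance trend, two-sided, Benjamini-Hochberg, threshold 0.05), and the script was tested on simulated data. Fold changes understate those of low miRNAs. Groups and mice came from the labels. Both retinas of a number are from 1 animal, and their deviations from the side means correlated across miRNAs by 0.0893 to 0.382 (median -0.0824 for eyes of different mice).

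The members, lists and tests were chosen with earlier results of these data known. Named miRNAs are the members, 3 neighbours in level on each side, the 5 most alike by r, the 2 nearest on each side on the chromosome, and both lists. miRNAs with the seed of miR-328 and target sites were not analysed here. Alternatives were other pseudocounts (0.1, 10) and filters (none, 100), median-ratio scaling, no block, no trend and leaving out each mouse.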

Additional observations from a re-analysis of the deposited data

Results flagged for a closer look

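Of 50 groups of 5 libraries checked for a value far from the others, 8 were past Dixon's critical value of 0.710, where chance gives about 1 in 20 for values that vary. In 3 of the 8 the other 4 libraries were at 0, so that any value above 0 passes, and these cannot be set against that rate. They are given as values, with no explanation. For mouse 65, the right retina had 22384 normalised reads of miR-184-3p, with 2117 as the next highest right retina. In the same library miR-7b-5p was at 27.6 normalised reads, with 10.7 as the next highest. The left retina of mouse 65, which also had the highest left value of miR-328-3p, had 10406 normalised reads of miR-541-5p, against 8035 in the next left retina. For mouse 66, the right retina had 12364 normalised reads of miR-375-3p, with 10406 as the next highest. The other 4 are values near 0. miR-328-5p was listed at 1.3 for left mouse 68 and at 0 in the other left retinas. miR-1966-5p was listed at 1.95 for left mouse 66, where the next left value was 0.215, and at 0.7 for right mouse 68. miR-7073-5p was likewise listed at 0.7 for right mouse 68, and the other right retinas had 0 of both.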

How the results depend on the processing

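The count of 0 miRNAs past the threshold by limma was the same under 12 alternatives, with 5 to 63 miRNAs at an unadjusted p under 0.05, the most without mouse 65. The log2 fold change of miR-328-3p stayed between 0.08 and 0.09 under the 7 alternatives that kept all mice, and ran from -0.018 without mouse 61 to 0.26 without mouse 65 (adjusted p by limma 0.337 to 1 over all alternatives). Without the replicate block its log2 fold change was 0.08, with an unadjusted p of 0.601 by limma, and the unblocked fit changed no call. Leaving out a mouse gave a range from -5.75 to 0.5 for its rank difference, from -0.071 to 0.40 for the log2 difference of miR-328-5p and from -0.31 to 0.25 for that of the log2 ratio of the arms, which was 0.076 with a pseudocount of 10 and -0.62 with 0.1. By construction these last 2 depend on the pseudocount, because miR-328-5p lies near 0. In alternatives chosen after seeing the data, leaving out a mouse moved the ratio of within-mouse to between-mouse differences of miR-328-3p, 1.26 in all mice, to between 0.874 (without mouse 65) and 1.56, and the SD of its eye difference, 0.44, to between 0.21 (without mouse 65) and 0.50. A filter at a mean of 100 left no value for miR-328-5p. Depth is unknown, and 5 mice cannot give an exact two-sided p below 0.0625.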
